A study of Mus musculus with 29 samples.

Results

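The comparison is between brain metastases of a mouse melanoma with mutated Braf given trametinib together with anti-PD-L1 (the concurrent combination) and brain metastases given trametinib without it, both on day 3. Samples were chosen by organ, treatment and day in their titles, which gave 4 samples per treatment, or 8 of the 29 samples in the study. The study as a whole sequenced T cell receptor transcripts in brain and ovary metastases. Its title concerns an anti-PD-L1 lead-in given before a MAPK inhibitor combination. Trametinib inhibits MEK, a kinase of the MAPK pathway downstream of BRAF, and was given in both groups compared here, so the contrast concerns the antibody added to it. PD-L1 is a ligand of the checkpoint receptor PD-1. Untreated samples and samples with an anti-PD-L1 lead-in made up the other brain treatments. The sources used here name no melanoma line, mouse strain, age or sex. The libraries amplify receptor transcripts only, so markers of brain tissue or tumour cells could not be checked.

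Each sample title gives a number and a part. The concurrent combination held numbers 1 and 6 and trametinib held numbers 8 and 13, each with a part 1 and a part 2. Neither term is explained in the labels, so a number may or may not be an animal. Parts of a number shared clonotypes, as described below, so the number was taken as the unit, with the values of its parts averaged. With 2 numbers against 2, the smallest exact two-sided permutation p is 0.333, so no single measure could pass a threshold of 0.05. With each part taken as a sample of its own, 4 against 4, the smallest p is 0.0286, but such p-values treat parts that share clonotypes as independent. They measure the spread between samples only, which may be technical.

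An alpha beta T cell carries a receptor made of a TRA and a TRB chain. Each chain joins a V segment to a J segment (with a D segment between them in TRB), and the junction encodes the CDR3, the loop that meets the peptide most directly. Descendants of a T cell keep its receptor. A clonotype, defined here by its V and J segments and its CDR3 residues, was therefore taken to mark a family of cells. One that is found in several numbers need not be a single family. The number of distinct clonotypes and their evenness describe how a T cell response is spread over such families. Invariant natural killer T (iNKT) cells are an exception to this diversity: in the mouse their alpha chain joins TRAV11 to TRAJ18 with a nearly constant junction and recognises lipids on CD1d.

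Clonotypes are named here by their V segment, their J segment and the length of their CDR3, as the table gives it. In number 1 of the concurrent combination the 3 largest beta chain clonotypes were TRBV16 with TRBJ1-1, TRBV29 with TRBJ1-2 and TRBV13-1 with TRBJ1-1, each with 13 residues. In number 6 they were TRBV4 with TRBJ2-3 (14 residues), TRBV13-2 with TRBJ2-1 (16) and TRBV31 with TRBJ1-3 (13). In the trametinib numbers 2 clonotypes led and 3 tied behind them. In number 8 the leading ones were TRBV17 with TRBJ2-2 (16 residues) and TRBV5 with TRBJ1-1 (14), and those tied at 13 counts were TRBV20 with TRBJ2-4 (13), TRBV15 with TRBJ2-1 (13) and TRBV16 with TRBJ2-5 (14). In number 13 the leading ones were TRBV5 with TRBJ1-4 (15) and TRBV12-1 with TRBJ1-5 (13), and those tied at 18 counts were TRBV3 with TRBJ2-7 (12), TRBV20 with TRBJ2-4 (14) and TRBV14 with TRBJ2-4 (13). TRBV20 with TRBJ2-4 was the pair found in both numbers, with CDR3s of different length.

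Each of the 4 brain samples of the concurrent combination gave more T cell receptor counts than any trametinib sample. TRB counts were 1373 and 3195 in number 1 and 1300 and 1527 in number 6 of the concurrent combination, against 527 and 354 in number 8 and 689 and 635 in number 13 of trametinib. TRA counts were 1697, 4272, 1698 and 1918 in the same order of the concurrent samples, against 611, 344, 863 and 667 in the trametinib samples. No concurrent sample lay within the trametinib range for either chain, and part 2 of number 1 was the highest of the 8. The difference of the log2 counts was 1.68 for TRB, a geometric mean 3.21 times that of trametinib, and 1.90 for TRA, 3.74 times. Both gave the smallest exact two-sided permutation p the design allows, 0.333 (adjusted p = 0.5 over 6 primary measures, higher in 2 of 2 numbers). With parts taken as samples, the exact p was 0.0286 and the adjusted p 0.0429, for both chains. RNA input per library is not recorded in the sources used here, and the counts are not normalized and may be reads or molecules. Fewer T cells, less receptor RNA per cell, a smaller input and shallower sequencing therefore cannot be told apart.

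The 2 chains moved together but not in the same ratio. TRA counts per TRB count were 1.24, 1.34, 1.31 and 1.26 in the concurrent combination, against 1.16, 0.972, 1.25 and 1.05 in trametinib, so that part 1 of number 13 lay inside the concurrent range. Among the other brain treatments, untreated samples held 302 to 605 TRB counts, lead-in samples 266 to 5317 and lead-in samples with the later combination 4148 to 7067. The trametinib samples overlapped the untreated range, and the concurrent samples lay above all untreated and below all lead-in combination samples.

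Repertoires of the concurrent combination also held more distinct clonotypes when brought to equal depth. At 354 TRB counts, the lowest total of the 8 samples, the clonotypes expected were 240.8, 267.0, 203.6 and 219.1 in the concurrent combination, against 170.8, 140.0, 176.2 and 198.6 in trametinib. For TRA, at 344 counts, they were 206.2, 239.1, 199.6 and 211.0, against 148.6, 111.0, 172.1 and 186.3. Neither chain's values overlapped between the treatments; the nearest were part 1 of number 6 and part 2 of number 13, in both chains. The log2 difference was 0.44 for TRB and 0.49 for TRA (exact permutation p = 0.333, adjusted p = 0.5, and 0.0429 with parts as samples). Richness and total counts moved together in these samples, and the part of total counts in the richness difference was not tested. They did not move together in all brain treatments. With parts summed, numbers 12 and 14 of the lead-in combination had 12311 and 11215 TRB counts. Their TRB richness at 354 counts was 219.9 and 200.4, against 203.9 and 229.5 in numbers 8 and 13 of trametinib. In numbers 1 and 6 it was 275.3 and 239.4.

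**Figure D1:**
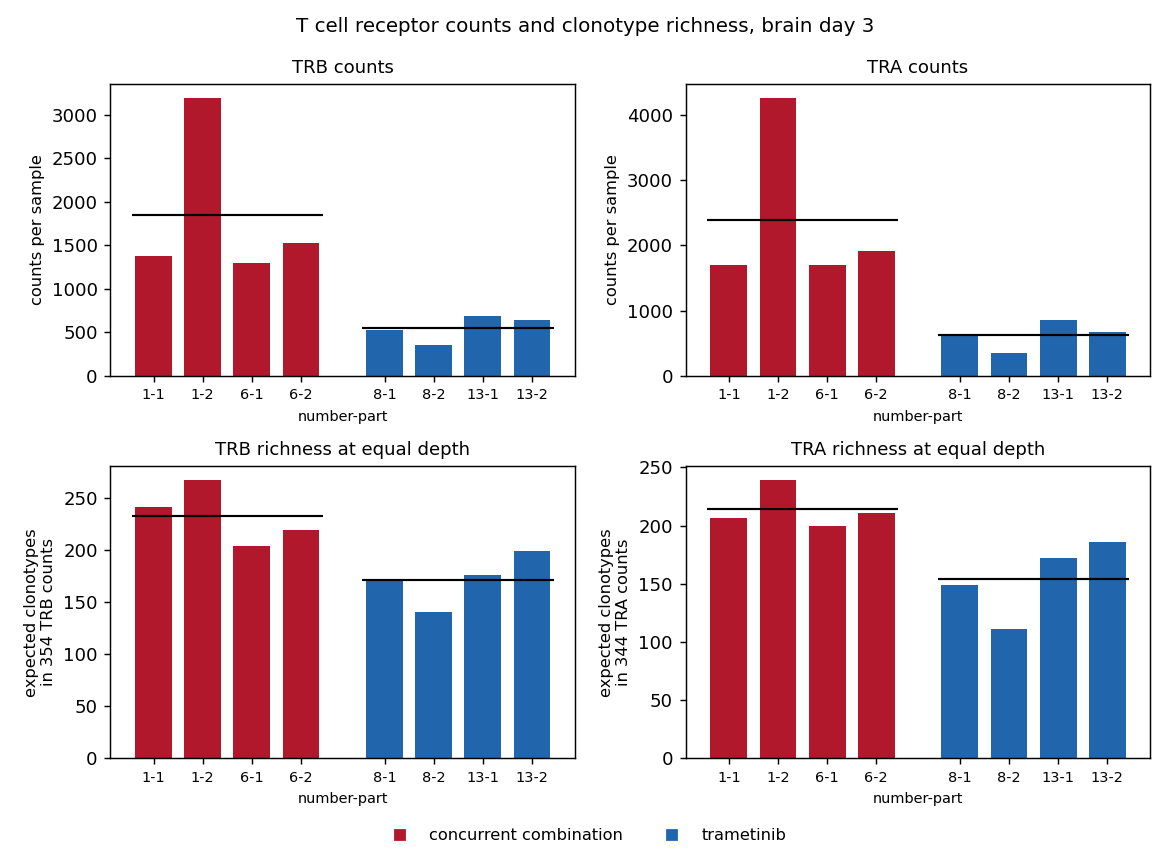
Bars give TRB and TRA counts per sample (upper panels) and the expected number of clonotypes at equal depth (lower panels), for each part of numbers 1 and 6 (concurrent combination) and numbers 8 and 13 (trametinib), and black lines give group means. All 4 concurrent samples stand above all 4 trametinib samples in each panel, with TRB counts of 1300 to 3195 against 354 to 689.

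The richness difference kept its sign under the other settings tried but changed in size. The TRB difference was 0.13 at 100 counts, 0.25 with the parts of a number summed, and 0.67 without clonotypes of a single count. The TRA difference was 0.16, 0.27 and 0.68 under the same settings, and 0.25 without number 8 against 0.73 without number 13. The ovary samples of numbers 1 and 13, which had 16179 to 24835 TRB counts, gave the opposite order. Their TRB richness at 354 counts was 222.7 and 222.2 in the concurrent combination, against 231.2 and 234.3 in trametinib.

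Clonality did not separate the treatments. The Simpson concentration is the probability that 2 counts drawn from a sample are of the same clonotype. For TRB it averaged 0.759% ± 0.514 in the concurrent combination and 0.696% ± 0.198 in trametinib (SD, n = 2 numbers each, parts averaged). It ran from 0.236% in part 2 of number 1 to 1.49% in part 1 of number 6, so the concurrent samples enclosed all trametinib samples (0.524% to 0.866%). For TRA the concentration was 0.756% ± 0.227 in the concurrent combination and 0.864% ± 0.387 in trametinib (SD, n = 2 numbers each). The exact permutation p was 1 for both chains, and the sign of both differences turned when the parts of a number were summed. The 10 largest TRB clonotypes held 15.6, 10.3, 26.5 and 19.3% of counts in the concurrent combination, against 22, 20.6, 15.5 and 16.7% in trametinib (exact permutation p = 1, adjusted p = 1 over 6 secondary measures). Within each treatment, the numbers therefore differed more than the treatments did: number 6 was more concentrated than number 1, and number 8 more than number 13, with the 10 largest clonotypes as the measure.

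The beta chain V segments, which set the germline loops of the receptor, gave no difference between the treatments that passed the test. All 21 TRBV segments with enough counts were tested together with 78 TRAV segments or joined TRAV names. None of the 99 passed an adjusted p of 0.05 in edgeR's quasi-likelihood test (percent called 0), and 5 had an unadjusted p under 0.05, which is 5.05% of those tested. DESeq2 also called none, with 7 at an unadjusted p under 0.05. The median log2 difference was -0.02 over the TRBV segments, of which 10 were higher and 11 lower in the concurrent combination, and 0.03 over all 99. The 3 most used TRBV segments had standard errors of 0.38 (TRBV19), 0.37 (TRBV16) and 0.37 (TRBV13-2) log2 units, so differences of that size were not detectable with 2 libraries per treatment.

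TRBV19 was the most used TRBV segment over the 8 samples. It held 9.40 and 8.64% of TRB counts in number 1 and 8.38 and 8.97% in number 6, against 12.1 and 12.1% in number 8 and 13.9 and 13.9% in number 13. All 4 concurrent samples lay below all 4 trametinib samples, a pattern that 4.04% of the V segments tested showed in this direction and 2.02% in the other. The log2 difference was -0.57 ± 0.38 (SE, edgeR adjusted p = 0.844). No single clonotype made up much of it: the largest TRBV19 clonotype held 5.43 and 5.28% of TRBV19 counts in numbers 1 and 6, against 7.48 and 4.35% in numbers 8 and 13. By clonotypes in place of counts, TRBV19 made up 9.43 and 10.7% of TRB clonotypes in numbers 1 and 6, against 12.04 and 14.6% in numbers 8 and 13. In the ovary samples of numbers 1 and 13 the samples overlapped, with 7.91 and 6.65% in the concurrent combination, against 5.80 and 7.10% in trametinib.

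The other commonly used TRBV segments overlapped between the treatments. TRBV16 held 10.3, 7.45, 9.23 and 6.75% in the concurrent combination, against 7.78, 19.2, 10.5 and 7.09% in trametinib, and the high value was part 2 of number 8. TRBV13-2 held 9.32, 8.86, 5.69 and 14.8% in the concurrent combination, against 4.74, 10.7, 6.24 and 11.8% in trametinib. The highest TRBV13-2 share of the 8 samples and the lowest of the concurrent combination were the 2 parts of number 6.

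The lowest p-values among TRBV segments belonged to TRBV4 and TRBV13-1, and a single clonotype held 57.1% of the TRBV4 counts of number 6. TRBV4 held 1.68, 2.22, 13.9 and 3.41% of TRB counts in the concurrent combination, against 2.28, 1.98, 1.60 and 0.472% in trametinib (log2 difference 1.69 ± 0.73, SE, edgeR adjusted p = 0.831). In part 1 of number 6, 132 of 181 TRBV4 counts were of the TRBV4 and TRBJ2-3 clonotype of 14 residues, which had 1 count in part 2. Without the largest clonotype of each chain, the TRBV4 difference was 0.83. TRBV13-1 held 8.96, 10.02, 7.77 and 3.86% in the concurrent combination, against 5.31, 4.52, 1.60 and 3.31% in trametinib (log2 difference 1.06 ± 0.50, SE, edgeR adjusted p = 0.831). Only part 2 of number 6 lay inside the trametinib range.

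**Figure D2:**
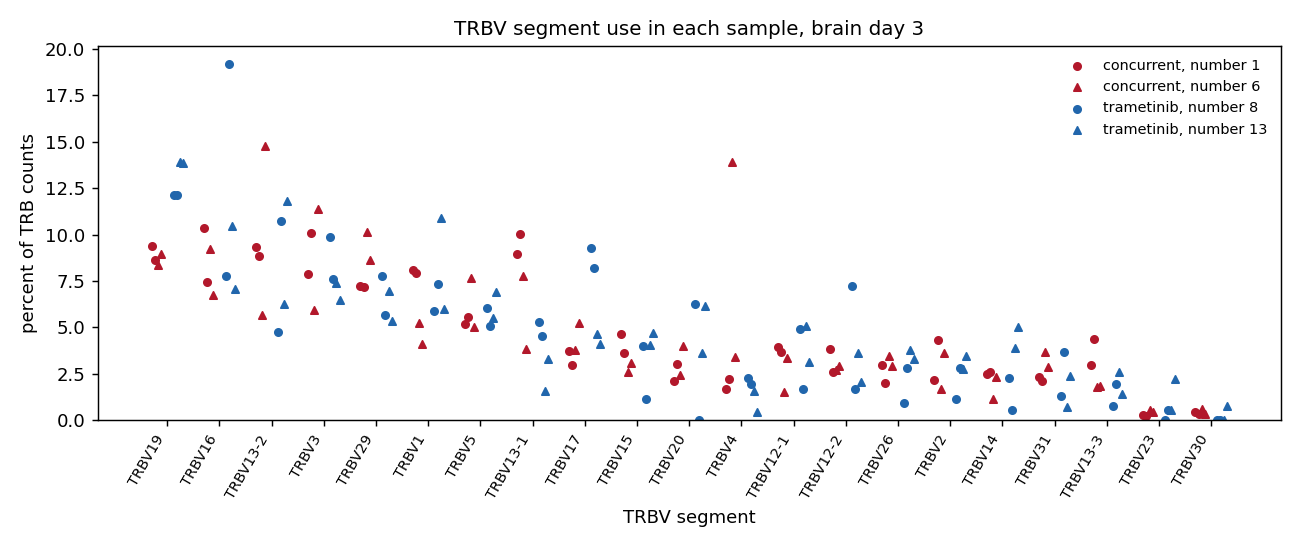
Each point is the share of TRB counts (vertical axis, percent) that 1 sample gave to a TRBV segment (horizontal axis, ordered by mean share), with concurrent samples in red on the left of each segment and trametinib samples in blue on its right. TRBV19 is the segment whose red points (8.38 to 9.40%) all lie below its blue points (12.1 to 13.9%), and the red point of TRBV4 at 13.9% is part 1 of number 6.

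Alpha chain V segments gave larger differences on fewer counts. Many mouse TRAV segments exist in near-identical copies, marked D and N in their names, and 39.7% of TRA counts in the 8 samples carried a name that joins several segments. Reads can be split between such copies, so single TRAV names are uncertain. The most used, TRAV7D-2, held 10.4, 11.7, 13.8 and 15.0% of TRA counts in the concurrent combination, against 17.0, 13.7, 7.07 and 11.1% in trametinib (log2 difference 0.07 ± 0.31, SE). Its sign turned to -0.49 without the largest clonotype of each chain. TRAV8-1 joined with TRAV8D-1 held 7.13, 7.80, 5.24 and 2.76%, against 5.24, 7.56, 8.0 and 4.95%, with overlap between the treatments.

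TRAV2 had the lowest p of all V segments (adjusted p = 0.489 in edgeR's test). It had 0, 2, 0 and 0 counts in the concurrent samples, against 1, 4, 0 and 12 in the trametinib samples. This is 2 of 9585 TRA counts against 17 of 2485, a ratio of 0.0305 with a 95% counting interval from 0.00342 to 0.128. The interval covers counting error only and holds no spread between numbers. Part 1 of number 13 had none, so the samples overlapped, and 9 of the 12 counts of number 13 were of 1 clonotype.

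TRAV13N-1 and TRAV7D-6 were the V segments of which every concurrent sample lay above every trametinib sample in observed share, 2.02% of those tested. TRAV13N-1 had 43, 47, 10 and 17 counts in the concurrent combination (2.53, 1.10, 0.589 and 0.886% of TRA), against 1, 0, 2 and 0 counts in trametinib. The ratio of the summed shares was 10.1, with a counting interval from 3.38 to 49.7 (edgeR adjusted p = 0.831). These concurrent counts were spread over 17 clonotypes in number 1 and 9 in number 6. In the ovary the mean share of TRAV13N-1 was 0.865% in the concurrent combination and 1.2% in trametinib. TRAV7D-6 had 4, 18, 14 and 13 counts in the concurrent combination, against 1, 0, 0 and 0 in trametinib, a ratio of 12.7 with an interval from 2.18 to 512 (edgeR adjusted p = 0.831). Part 2 of number 8 held neither segment among its 344 TRA counts, so shares below 0.872% may have been missed there. That limit exceeds all concurrent TRAV7D-6 shares (0.236 to 0.824%) and the 0.589% of TRAV13N-1 in part 1 of number 6. At this depth the true shares may therefore overlap.

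Below the trametinib samples in all 4 concurrent samples were TRAV11N, described with the iNKT chains, TRAV7N-5 and TRAV9D-1. Together with TRBV19 they made up 4.04% of the V segments tested. TRAV7N-5 held 0.236, 0.211, 0.0589 and 0.104% of TRA counts in the concurrent combination, against 0.818, 1.16, 1.16 and 0.900% in trametinib, on at most 10 counts per sample (log2 difference -2.68 ± 1.26, SE, edgeR adjusted p = 0.831). TRAV9D-1 averaged 1.25% ± 0.227 in the concurrent combination and 2.65% ± 0.0438 in trametinib (SD, n = 2 numbers each). It lies outside the rule by which segments were named and was added after its values were seen. TRAV10 (adjusted p = 0.844) overlapped, at 1.12 to 4.24% in the concurrent combination and 2.20 to 9.30% in trametinib, as did TRAV5-1, at 0 to 0.187% and 0 to 1.51%. TRAV12D-1 had 0, 2, 0 and 7 counts in the concurrent combination, against 0, 0, 21 and 7 in trametinib, where number 13 held all of them, and its sign turned without that number.

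J segments supply the last part of the CDR3 and the start of the framework after it. None of the 53 tested passed (percent called 0), 1 had an unadjusted p under 0.05 in edgeR's test (1.89%) and 3 had one in DESeq2. That segment was TRBJ1-3, at 4.81, 4.76, 7.38 and 10.5% of TRB counts in the concurrent combination, against 3.61, 3.67, 3.77 and 1.73% in trametinib (log2 difference 1.11 ± 0.52, SE, edgeR adjusted p = 0.699). All concurrent samples lay above all trametinib samples, as in 1.89% of the J segments tested. In number 6, 61 of 256 TRBJ1-3 counts were of the TRBV31 clonotype that is among its 3 largest. TRAJ38 was the J segment that lay below in all 4 concurrent samples, again 1.89% of those tested, at 0.177 to 0.942% against 0.982 to 3.30% (edgeR adjusted p = 0.699). It too was added after its values were seen.

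The TRBJ1 and TRBJ2 clusters, the 2 sets of J segments of the beta locus, were compared as lists. Of the 6 TRBJ1 segments none passed, 4 were higher in the concurrent combination and their median log2 difference was 0.25, beside 0.05 for all J segments. Of the 6 TRBJ2 segments none passed, 4 were lower and the median was -0.12. The TRBJ2 share was 60.2, 64.6, 64.4 and 64.1% of TRB counts in the concurrent combination, against 70.2, 75.7, 62.4 and 65.2% in trametinib. The 2 high values were both parts of number 8, and the difference of -5.07 percentage points (exact permutation p = 0.667, adjusted p = 1) became -0.49 without that number. TRBJ2-7, the most used J segment, held 20.3, 17.8, 12.5 and 17.6% in the concurrent combination, against 25.4, 24.6, 17.1 and 20.5% in trametinib, where the ranges overlapped. TRBJ2-3 held 24.3% in part 1 of number 6, which carries the large TRBV4 and TRBJ2-3 clonotype, and 8.06 to 11.3% in the other concurrent samples, against 6.83 to 13.3% in trametinib. TRBJ1-1 held 8.58 to 15.7% in the concurrent combination and 7.06 to 12.7% in trametinib.

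TRBJ1-4 and TRBJ1-2 did not pass, and their samples overlapped between the treatments. TRBJ1-4 held 5.39, 5.32, 4.46 and 3.14% of TRB counts in the concurrent combination, against 4.74, 9.60, 8.85 and 8.50% in trametinib (edgeR adjusted p = 0.699). TRBJ1-2 held 4.08 to 9.03% in the concurrent combination, against 1.98 to 5.88% in trametinib. Of the alpha J segments, TRAJ35 held 4.54 and 4.03% in number 1, 0.353 and 0% in number 6, and 0 to 1.16% in the trametinib samples. In number 1, 218 of 249 TRAJ35 counts were of 1 alpha clonotype of 13 residues, with TRAV8-1 or TRAV8D-1. TRAJ11 had 17, 47, 58 and 41 counts in the concurrent combination, against 0, 0, 11 and 0 in trametinib, and a single clonotype made up 50.0% of these counts in number 1 and 75.8% in number 6.

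Alpha chains of the iNKT type took a smaller share of TRA counts in the concurrent combination, while their counts per sample overlapped between the treatments. Any TRAV11 copy joined to TRAJ18 held 0.412, 1.64, 1.24 and 1.72% of TRA counts in the concurrent combination, against 4.42, 3.20, 2.67 and 3.60% in trametinib. All 4 concurrent samples lay below all 4 trametinib samples, although the 95% intervals of part 2 of number 1 (1.28 to 2.07%), part 1 of number 6 (0.767 to 1.88%) and part 2 of number 6 (1.19 to 2.41%) overlapped those of some trametinib samples. The difference was -2.22 percentage points (exact permutation p = 0.333, adjusted p = 1 over 6 secondary measures, lower in 2 of 2 numbers, and 0.171 with parts as samples). The counts behind the shares were 7, 70, 21 and 33 in the concurrent combination, against 27, 11, 23 and 24 in trametinib, and these overlapped. Summed over parts, numbers 1 and 6 had 77 and 54 such counts, against 38 and 47 in numbers 8 and 13, without overlap. These libraries had 5969 and 3616 TRA counts, against 955 and 1530. The 95% intervals of the summed shares were 1.02 to 1.61% and 1.12 to 1.94%, against 2.83 to 5.42% and 2.27 to 4.06%, and cover counting error only.

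**Figure D3:**
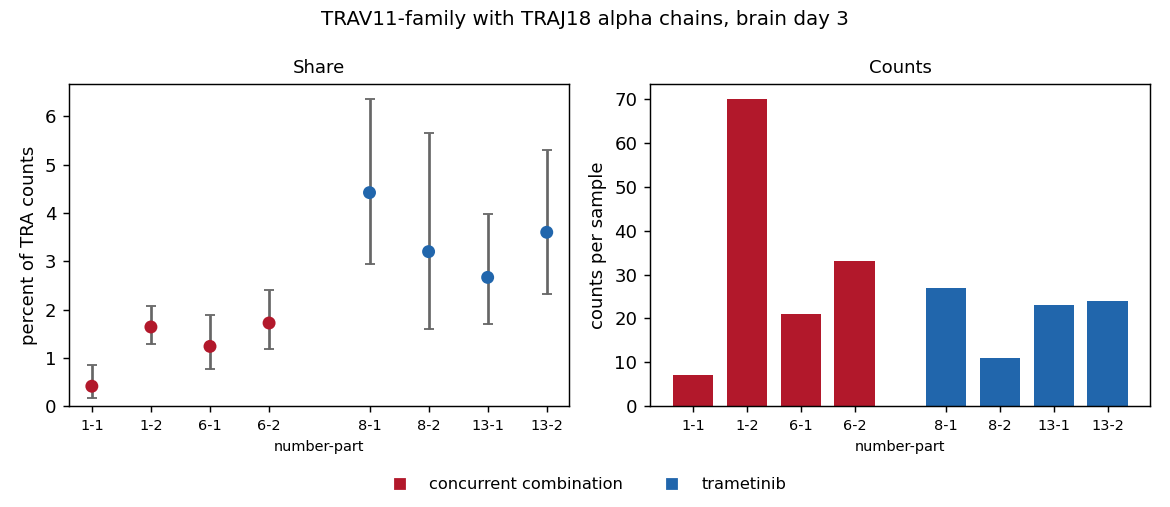
Alpha chains of a TRAV11 copy with TRAJ18 in each sample, on the left as percent of TRA counts with exact 95% intervals for counting error, on the right as counts per sample. The share is at most 1.72% in the concurrent samples and at least 2.67% in the trametinib samples, while the counts of the treatments overlap (7 to 70 against 11 to 27).

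Most of these chains were the same receptor chain, a TRAV11N and TRAJ18 pair with a CDR3 of 15 residues. It had 7, 46, 16 and 24 counts in the concurrent combination, against 20, 11, 22 and 18 in trametinib, and it was found in the brain samples of all 10 numbers of the study. The same CDR3 with the joined name TRAV11 and TRAV11D had 0, 12, 4 and 8 counts, against 1, 0, 1 and 6. Over all names that include TRAV11 or TRAV11D, also those joined with TRAV11N, the difference between the treatments was -0.028 percentage points. TRAV11N itself held 0.412, 1.33, 0.942 and 1.25% of TRA counts in the concurrent combination, against 4.26, 3.20, 2.55 and 2.70% in trametinib (log2 difference -1.57 ± 0.85, SE, edgeR adjusted p = 0.844). TRAJ18 joined to other V segments showed no such order, with 1.37 and 2.16% in numbers 1 and 6, against 1.99 and 1.83% in numbers 8 and 13.

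In the ovary samples of numbers 1 and 13 the iNKT-type share was 2.99 and 4.87% in the concurrent combination, against 6.33 and 7.63% in trametinib. These are the same numbers as in the brain and add no further unit. Untreated brain samples ranged from 1.10 to 9.46%, a range that held all 4 trametinib samples and 3 of the 4 concurrent samples. Low shares were not particular to the concurrent combination. With parts summed, the brain share was 0.538 and 2.14% in numbers 10 and 11 of the lead-in. In numbers 12 and 14 of the lead-in with the later combination it was 0.629 and 1.01%. The alpha chain of mucosal-associated invariant T cells, TRAV1 joined to TRAJ33, had 0 counts in all 8 samples, so that shares up to 0.0702% in the deepest concurrent sample and up to 0.872% in the shallowest trametinib sample remain possible (3 counts of the total). The table used here lists no TRG or TRD rows, so gamma delta T cells were not analysed here.

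CDR3 length and the share of clonotypes seen elsewhere gave no separation. Mean TRB CDR3 length was 13.8, 13.9, 13.98 and 14.3 residues in the concurrent combination, against 13.7, 13.9, 13.6 and 13.9 in trametinib (exact permutation p = 0.667, adjusted p = 1). Mean TRA length was 13.5 to 13.6 residues in the concurrent combination and 13.4 to 13.8 in trametinib. TRB counts in clonotypes that also occurred in another number of the study made up 10.1, 11.96, 12.2 and 11.3% in the concurrent combination, against 11.6, 15.0, 14.4 and 14.02% in trametinib. Part 1 of number 8 lay inside the concurrent range, and the difference of -2.36 percentage points had an exact permutation p of 0.333 (adjusted p = 1).

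The clonotypes themselves differed between numbers, and often between the parts of a number. In number 1, the TRBV16 and TRBJ1-1 clonotype had 72 counts in part 1 and 14 in part 2, or 5.24 and 0.438% of TRB counts. The TRBV29 and TRBJ1-2 clonotype ran the other way, with 3 and 53 counts, and the TRBV13-1 and TRBJ1-1 clonotype had 37 and 18. In number 6, the TRBV4 clonotype held 10.2% of part 1 and 0.0655% of part 2, and the TRBV13-2 clonotype had 0 counts in part 1 and 97 in part 2. The TRBV31 clonotype was even, with 26 and 35 counts. Each of these 6 clonotypes was found in the brain of a single number.

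The trametinib numbers showed the same unevenness on fewer counts. In number 8, the TRBV17 clonotype had 22 and 6 counts, while the TRBV5 and TRBJ1-1 clonotype had 20 and 0. Of the 3 tied at 13 counts, the TRBV20 clonotype had 13 and 0, the TRBV15 clonotype 10 and 3 and the TRBV16 clonotype 3 and 10. With 354 TRB counts in part 2, a count of 0 is compatible with shares up to 0.847%, below the 3.80 and 2.47% that the TRBV5 and TRBV20 clonotypes held in part 1. In number 13, the TRBV5 and TRBJ1-4 clonotype had 19 and 9 counts and the TRBV12-1 clonotype 15 and 13. Of the 3 tied at 18 counts, the TRBV3 clonotype had 11 and 7, the TRBV20 clonotype 6 and 12 and the TRBV14 clonotype 0 and 18. Of TRB clonotypes with at least 10 counts in a number, 54 of 64 in number 1 and 25 of 34 in number 6 were found in both parts, against 4 of 7 in number 8 and 7 of 10 in number 13. For TRA these were 76 of 103 and 27 of 44, against 8 of 11 and 9 of 17. A cut of 10 counts is a larger share of the smaller trametinib totals, and detection in the other part depends on its depth. These fractions were therefore not compared further.

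**Figure D4:**
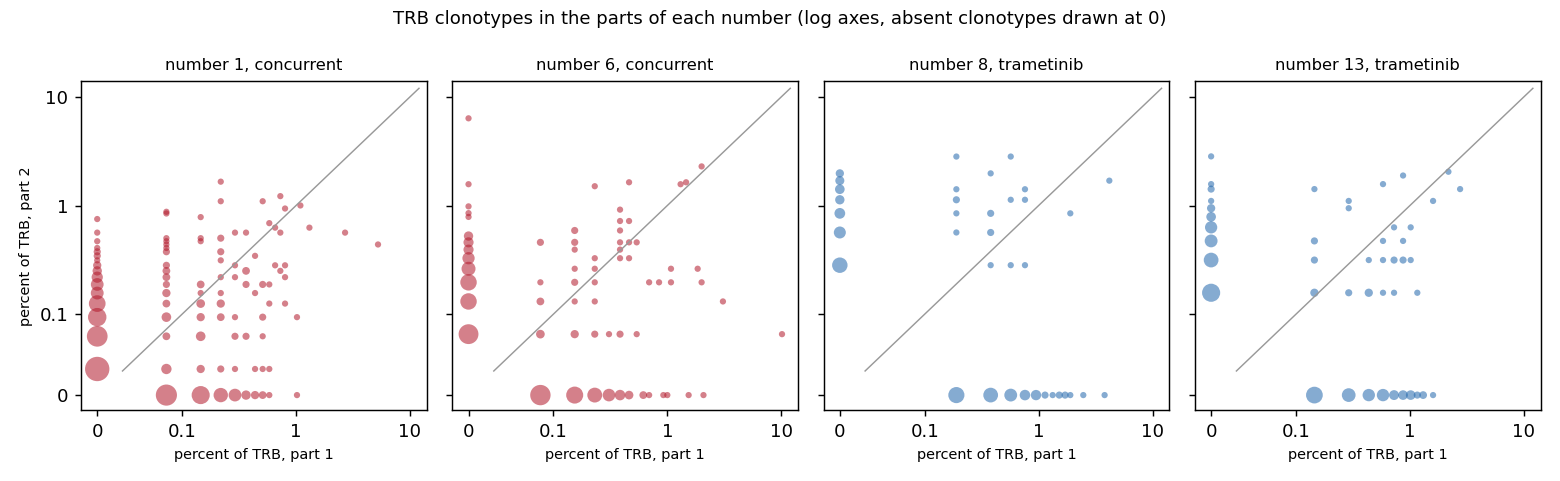
TRB clonotypes of each number by their share of TRB counts in part 1 (horizontal) and part 2 (vertical), on log axes with absent clonotypes drawn at the position marked 0, and with larger points for more clonotypes at a position. The lower right point of number 6 is the TRBV4 clonotype (10.2% in part 1 and 0.0655% in part 2). Of the clonotypes of a number, 90.7 to 93.8% were found in 1 part only and lie at the positions marked 0. Clonotypes of a single count, which can lie only there, made up 41.4 to 42.9% of the clonotypes of a number.

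Alpha chains showed both private and shared clonotypes. A TRAV7D-2 and TRAJ23 clonotype of 13 residues was found in all 4 numbers compared and in the brain of 9 of the 10 numbers of the study. It had 52, 166, 30 and 12 counts in the concurrent combination (3.06, 3.89, 1.77 and 0.626% of TRA), against 24, 6, 2 and 3 in trametinib (3.93, 1.74, 0.232 and 0.450%). Its share was thus higher in number 1 than in number 6, and higher in number 8 than in number 13. A second TRAV7D-2 and TRAJ23 clonotype of 13 residues had 36 and 136 counts in number 6 and none in the other 3 numbers.

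The other leading alpha clonotypes belonged mostly to a single number. In number 1, TRAV8-1 or TRAV8D-1 with TRAJ35 was even between the parts, at 3.59 and 3.68%, as was the same V name with TRAJ31, at 2.06 and 1.87%. In number 6, TRAV16 with TRAJ16 (14 residues) had 1 count in part 1 and 87 in part 2, and TRAV7N-4 with TRAJ6 (15 residues) had 82 and 32. In number 8, TRAV21/DV12 with TRAJ56 (14 residues) had 21 and 3 counts. In number 13, TRAV8-1 or TRAV8D-1 with TRAJ24 (14 residues) had 20 and 22 counts, and 1 count in number 6, and TRAV6D-5 or TRAV6N-5 with TRAJ38 (16 residues) had 14 and 7.

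Few clonotypes were shared between numbers. Of 3088 TRB clonotypes in the 8 samples, 3057 (99.0%) occurred in 1 of the 4 numbers, 24 in 2, 7 in 3 and 0 in all 4. Of 2997 TRA clonotypes, 2951 (98.5%) occurred in 1 number and 3 in all 4, these being the first TRAV7D-2 and TRAJ23 clonotype and the iNKT-type chain under its 2 names. Numbers 1 and 6 of the concurrent combination had 9 TRB clonotypes in common that neither trametinib number held, from 1463 and 866 clonotypes. Numbers 8 and 13 of trametinib had 2 that neither concurrent number held, from 324 and 473. The repertoires differ in size, so these counts were not compared further.

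The treatment-restricted clonotypes were small. The largest of the 9 in the concurrent combination was TRBV2 with TRBJ1-1 (14 residues), with 2 counts in number 1 and 19 in number 6, followed by TRBV29 with TRBJ2-3 (12 residues), with 8 and 6 counts, and TRBV12-2 with TRBJ2-5 (14 residues), with 2 and 5. Those of trametinib were TRBV16 with TRBJ2-4 (13 residues), with 9 counts in number 8 and 1 in number 13, and TRBV3 with TRBJ2-7 (14 residues), with 1 count in each. All 5 were also found in another number of the study outside these 4, in brain or ovary. For TRA, numbers 1 and 6 had 13 such clonotypes, led by TRAV9N-3 with TRAJ12, with 30 and 4 counts, TRAV14D-3/DV8 or TRAV14N-3 with TRAJ42, with 17 and 5, and a TRAV12D-2 and TRAJ32 chain of 16 residues with 16 and 3. Numbers 8 and 13 had 1, TRAV7D-3 with TRAJ9, with 1 and 5 counts.

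Overlap of whole repertoires followed the number and not the treatment. The Morisita-Horn index, which is 100% for repertoires with the same clonotypes at the same shares, was 32.4% between the parts of number 1 and 13.6% between those of number 6, against 15.6% in number 8 and 25.5% in number 13. Between samples of different numbers of 1 treatment it was at most 0.306%, and between samples of different treatments at most 2.35%. The parts of number 1 shared 136 TRB clonotypes, which held 41.7% of the counts of part 1 and 32.7% of those of part 2. For TRA the index between parts was 68.4 and 37.5% in numbers 1 and 6, against 25.3 and 31.3% in numbers 8 and 13. TRA overlap between numbers was higher than for TRB, at 3.23 to 12.9% within a treatment and 2.71 to 23.3% between treatments. The highest was between part 2 of number 1 and part 1 of number 8, where the shared TRAV7D-2 and TRAJ23 clonotype held 3.89 and 3.93% of TRA counts. Pairs share samples, so these values are a description with no test. Depth also differed between the samples. With Morisita's correction for depth (added after seeing the data), the TRB index between parts was 36.6 and 14.4% in numbers 1 and 6. In numbers 8 and 13 it was 19.9 and 32.4%.

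**Figure D5:**
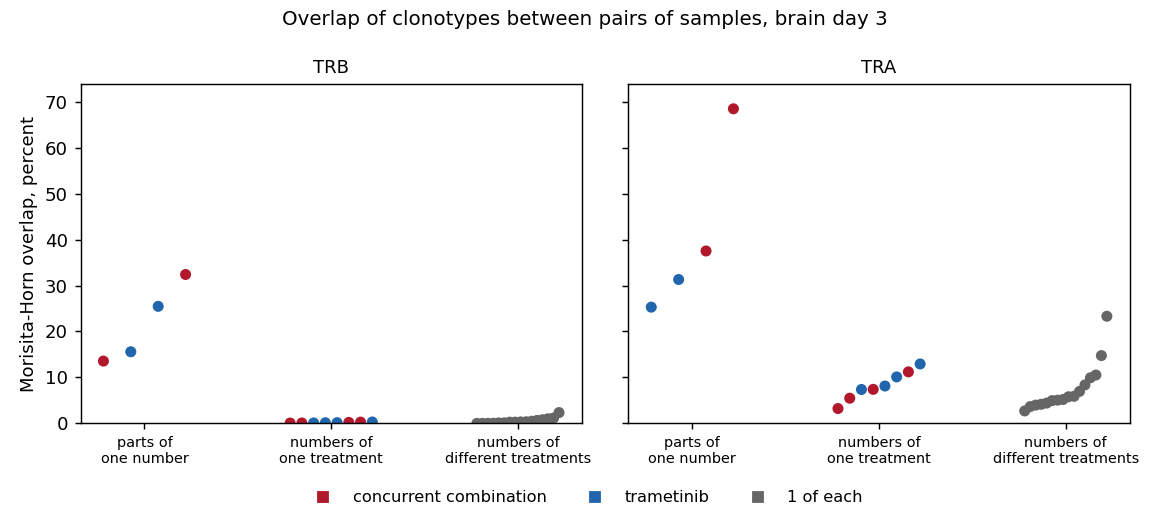
Morisita-Horn overlap (percent) for every pair of the 8 samples, by whether the pair is 2 parts of a number, samples of different numbers of 1 treatment, or samples of different treatments, for TRB (left) and TRA (right). Parts of a number give 13.6 to 32.4% for TRB, against at most 2.35% for all other pairs, and TRA pairs of different numbers reach 23.3%.

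Large brain clonotypes recurred in the ovary of the same number. Numbers 1 and 13 were sampled in both organs. Of TRB clonotypes with at least 10 counts in the brain, 61 of 64 in number 1 and 10 of 10 in number 13 were found in the ovary samples of that number. Of those with a single count, 13.9% (86 of 617, exact interval 11.3 to 16.9%) were found there in number 1, against 22.7% (46 of 203, 17.1 to 29.0%) in number 13. The brain of number 1 had 4568 TRB counts and that of number 13 had 1324, so a single count is not the same share in both. The index between brain and ovary was 51.4% in number 1 and 40.7% in number 13 for TRB, against 3.12% for the brain of number 1 with the ovary of number 13 and 0.521% for the brain of number 13 with the ovary of number 1. The TRBV16 and TRBJ1-1 clonotype, at 1.88% of the brain of number 1, held 2.78% of its ovary counts, while the TRBV29 and TRBJ1-2 clonotype held 1.23% of the brain and 0.133% of the ovary. In number 13, the TRBV3 and TRBJ2-7 clonotype held 1.36% of the brain and 1.45% of the ovary, and the TRBV12-1 clonotype 2.11 and 0.199%.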

How the data were processed

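Per the labels' protocols, receptor transcripts were amplified from tissue RNA with a QIAseq immune repertoire kit. The authors deposited 1 table of whole-number counts for all samples, with no normalization, and without saying if these are reads or molecules. Aligner, clonotype caller and filters were not given in the sources used here. No coordinates are printed, since the build in the submitters' processing notes is the human GRCh38. Segment names were checked against RefSeq's GRCm38.p6 table, where 127 of 127 single names matched.

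Of 49519 combinations, 27517 were TRB, 22002 TRA and 0 TRG or TRD. In the 8 samples, 8 of 21678 counts (0.0369%) had an unresolved CDR3 residue and were left out. The samples held 344 to 4272 counts per chain. The 95% intervals are exact (Clopper-Pearson) and, like the limit that a count of 0 allows (3 counts of the total), cover counting error only, since PCR copies are not independent molecules. Counting intervals of ratios treat the summed counts as independent.

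Measures per sample were averaged over the parts of a number and compared by two-sided exact permutation tests, adjusted by Benjamini-Hochberg over 6 primary and 6 secondary measures, with a threshold of 0.05. Segment counts, parts summed, were tested by quasi-likelihood with edgeR 4.0.16 under R 4.3.3. The 10 brain libraries shared a fit, the log total of each chain was the offset, and segments needed 10 counts or more in 2 libraries. DESeq2 1.42.0 served as alternative. P-values were adjusted over all V or all J segments tested. Python 3.11.15, numpy 2.4.6, pandas 2.3.3, scipy 1.17.1 and matplotlib 3.10.9 were used otherwise. The scripts were tested on simulated counts.

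Named were V and J segments past the threshold (there were none), the 10 V and 5 J segments of lowest p, the 3 most used TRBV, TRAV and TRBJ segments, the lists of TRBJ clusters and invariant chains, the 3 largest clonotypes of each chain and number (with those tied), and up to 3 clonotypes restricted to each treatment or found in all 4 numbers. Samples, measures and lists were chosen with earlier results of these data known. CDR3 residues are not printed, and clonotypes are named by segments and length.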

Additional observations from a re-analysis of the deposited data

Results flagged for a closer look

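Richness at equal depth differed between the treatments in opposite directions in the 2 organs. The log2 difference, concurrent combination minus trametinib, was 0.44 for TRB and 0.49 for TRA in the brain, against -0.07 and -0.11 in the ovary, and every sample of each organ followed its organ's direction. The difference between the organs was not tested, and the ovary holds 1 number per treatment.

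Several samples stood apart from the other 3 of their treatment. Such a test picks about 1 in 20 groups by chance, but this rate does not apply where the other 3 samples hold 0 counts. A sample with any count is then always picked, as for TRAV2, TRAV7D-6 and TRAJ11 here. Part 2 of number 1 had a TRA count of 12.06 on the log2 scale, the highest of the concurrent combination, and part 1 of number 1 the lowest TRBJ2 share, 60.2%. Part 1 of number 6 had the highest TRBV4 share, 13.9%, and part 2 of number 6 the highest TRAV12D-1 share, 0.365%. Part 2 of number 1 was the only concurrent sample with TRAV2 counts (0.0468% of TRA). In trametinib, part 1 of number 8 was the only sample with TRAV7D-6 counts (0.164%), part 1 of number 13 the only one with TRAJ11 counts (1.27%), and part 2 of number 13 had the lowest TRBJ1-3 share, 1.73%.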

How the results depend on the processing

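No paired analysis was possible because the 2 treatments share no numbers. No V or J segment passed under any alternative tried: DESeq2, TMM factors, no filter, the 4 libraries alone, parts as libraries, clonotypes counted once, the largest clonotypes left out, or each number left out (0 calls in each). With each part as its own sample, the count and richness differences passed (log2 1.68 for TRB count, 1.90 for TRA count, 0.44 for TRB richness and 0.49 for TRA richness). That setting treats parts that share clonotypes as independent, and with numbers as the unit no measure could pass. Leaving out samples or numbers gave 1.38 to 1.99 for TRB count, 1.54 to 2.27 for TRA count, 0.31 to 0.58 for TRB richness, 0.25 to 0.73 for TRA richness and -2.56 to -1.88 percentage points for the iNKT-type share. Measures near 0 turned sign. With parts summed, the differences were -0.0177 points (TRB concentration), 0.00548 (TRA concentration) and 0.772 (10 largest TRB clonotypes). Leaving out samples or numbers gave -0.300 to 0.426, -0.381 to 0.166 and -5.79 to 4.21 for these, and -0.128 to 0.0846 residues for TRA CDR3 length. Among segments, TRAV8-1 with TRAV8D-1 turned to 0.025 with DESeq2 and 0.23 without the largest clonotypes, TRAV7D-2 to -0.32 with clonotypes counted once and -0.49 without the largest, and TRBJ1-1 to -0.19 with clonotypes counted once. Without single numbers, TRAJ35 ran from -1.44 to 3.20, TRAV12D-1 from -4.73 to 5.68, TRAV7D-2 from -0.30 to 0.54 and TRAV8-1 with TRAV8D-1 from -0.70 to 0.25. The causes were not tested. The median overlap between parts was 20.5% for TRB and 34.4% for TRA (TRA was added after seeing the data). Depth limits shares to the counting intervals given, and 2 numbers per treatment limit every test.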

Other observations

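The clonotype size distribution gives a further view of the same repertoires. The 219 largest TRB clonotypes of number 1 and the 120 largest of number 6 held 50 percent of the TRB counts of these numbers of the concurrent combination, against 68 in number 8 and 96 in number 13 of trametinib. As a share of all TRB clonotypes these were 15.0 and 13.9%, against 21.0 and 20.3%. For TRA they were 144 and 125 clonotypes, against 51 and 96, or 10.3 and 13.7% of all, against 18.3 and 20.7%. Clonotypes of a single count made up 13.5 and 12.8% of TRB counts in numbers 1 and 6, against 15.2 and 15.3% in numbers 8 and 13. These shares depend on depth, which differed between the numbers, and were not tested.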
